A study of Mus musculus with 52 samples.

Results

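The 7 genes described here lie in 1 stretch of proximal mouse chromosome 6 and were chosen with their differences between APP/E4 and APP/E3 mice in view: the paraoxonases Pon3 and Pon2, then Asns, Col28a1, Umad1, Glcci1 and Ica1. They are 7 of the 15692 genes in the deposited count table and 7 of 767 measured genes of that chromosome, and all 7 passed the filter on low counts. Another 13 measured genes lie between Pon3 and Ica1 and were not chosen, so the set is a selection from the stretch and not the whole of it. RNA came from the frontal cortex of 52 mice, 1 library per animal. All mice carried the APP/PS1ΔE9 transgenes, which drive amyloid plaque formation, and both copies of their own Apoe gene were replaced by human APOE. The APP/E4 mice (APP/PS1ΔE9/APOE4 +/+) comprised 7 HFD females, 5 HFD males, 7 ND females and 6 ND males, and the APP/E3 mice (APP/PS1ΔE9/APOE3 +/+) comprised 8 HFD females, 6 HFD males, 7 ND females and 6 ND males. HFD was a Western diet with 40% of calories from milk fat and corn oil, 42.6% from carbohydrate and 16.8% from protein, and ND was normal Prolab Isopro chow. Mice were on average 3.5 months old when the diets began, which were fed for 3 months, and on average 14.7 months old at behavioural testing. In the widely used line of this name the transgenes are driven by the mouse prion protein promoter. The titles of the APP/E4 animals begin with another letter than those of the APP/E3 animals, and a difference of APOE allele and a difference between breeding lines cannot be told apart here.

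Paraoxonases are calcium-dependent lactonases that limit the oxidation of lipids. PON1 and PON3 travel in blood on high-density lipoprotein, the particle class that also carries apolipoprotein E, whereas PON2 stays inside cells, in membranes of the endoplasmic reticulum and mitochondria, and is made in many tissues including the brain. Asns encodes asparagine synthetase, a target of the transcription factor ATF4 that is switched on when cells run short of amino acids. Col28a1 encodes the collagen XXVIII chain, known from basement membranes around peripheral glia. Umad1 encodes a small protein with the UMA domain that is also found in UBAP1, a subunit of the ESCRT-I complex, which sorts membrane proteins for degradation. Glcci1 was named as a transcript induced by glucocorticoids in thymocytes. Ica1 encodes islet cell autoantigen 1, a BAR-domain protein that binds the GTPase RAB2 on Golgi and secretory granule membranes.

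Total counts ran from 5.34 to 13.1 M, and reached 39.4 M in a single library, the fifth of the APP/E3 ND males. Levels below are CPM, counts relative to the TMM-scaled library total, and 3 counts, the limit that a count of 0 allows, correspond to between 0.0754 and 0.579 CPM in a library, for counting error only. In 11 female libraries Rps10, a ribosomal gene with many processed copies, lay at 18.117 to 25.003 CPM, against 1.484 to 5.973 CPM in the other 41 libraries, called read class 1 below. These 11 comprise 5 of 8 APP/E3 HFD females and 2 of 7 in each other female group, and 14 males have titles without a sex letter. Reads were counted on a mouse build, where Apoe lay at 11.6 to 26.2 CPM in APP/E4 and 15.2 to 25.6 CPM in APP/E3 libraries. How many reads of human APOE these values hold is not known, so the counts do not check the genotype labels. Cortical excitatory neuron markers were present in every library, with summed levels of 4229 to 9195 CPM in APP/E4 and 5769 to 8811 CPM in APP/E3. Olfactory genes stood apart in APP/E4 HFD female 4, with the highest summed level of 6 such genes, and in APP/E3 ND male 3, with the highest Omp, while APP/E4 ND male 3 had the second highest sum. The Pon3 and Col28a1 results that rest on the first 2 libraries are given without them as well. In bulk tissue, fewer cells of a type and less RNA per cell cannot be told apart. P-values measure the spread between animals of these groups.

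Between the genotypes, Pon2, Ica1, Umad1 and Glcci1 were lower and Asns and Col28a1 higher in APP/E4 cortex, while Pon3 differed by less than its error. Averaged over diet and sex, the log2 difference of APP/E4 minus APP/E3 was -0.53 ± 0.05 (SE) for Pon2, -0.36 ± 0.04 for Ica1, -0.21 ± 0.03 for Umad1 and -0.21 ± 0.04 for Glcci1. It was 0.24 ± 0.05 for Asns, 1.25 ± 0.26 for Col28a1 and -0.14 ± 0.16 for Pon3. Because this contrast chose the genes, these values are a description and no test is given for them. For the same reason nothing is read from the count of 6 of 7 genes past an adjusted p of 0.05 in edgeR, where 6.79% of the 15195 tested genes passed, 3.39% higher and 3.4% lower in APP/E4. No gene of the 7 separated all 25 APP/E4 from all 27 APP/E3 libraries, which 0.0526% of tested genes did. Within single combinations of diet and sex, Pon2 and Ica1 separated the genotypes in 3 of 4, Umad1 and Col28a1 in 1 and the other genes in none.

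**Figure D1:**
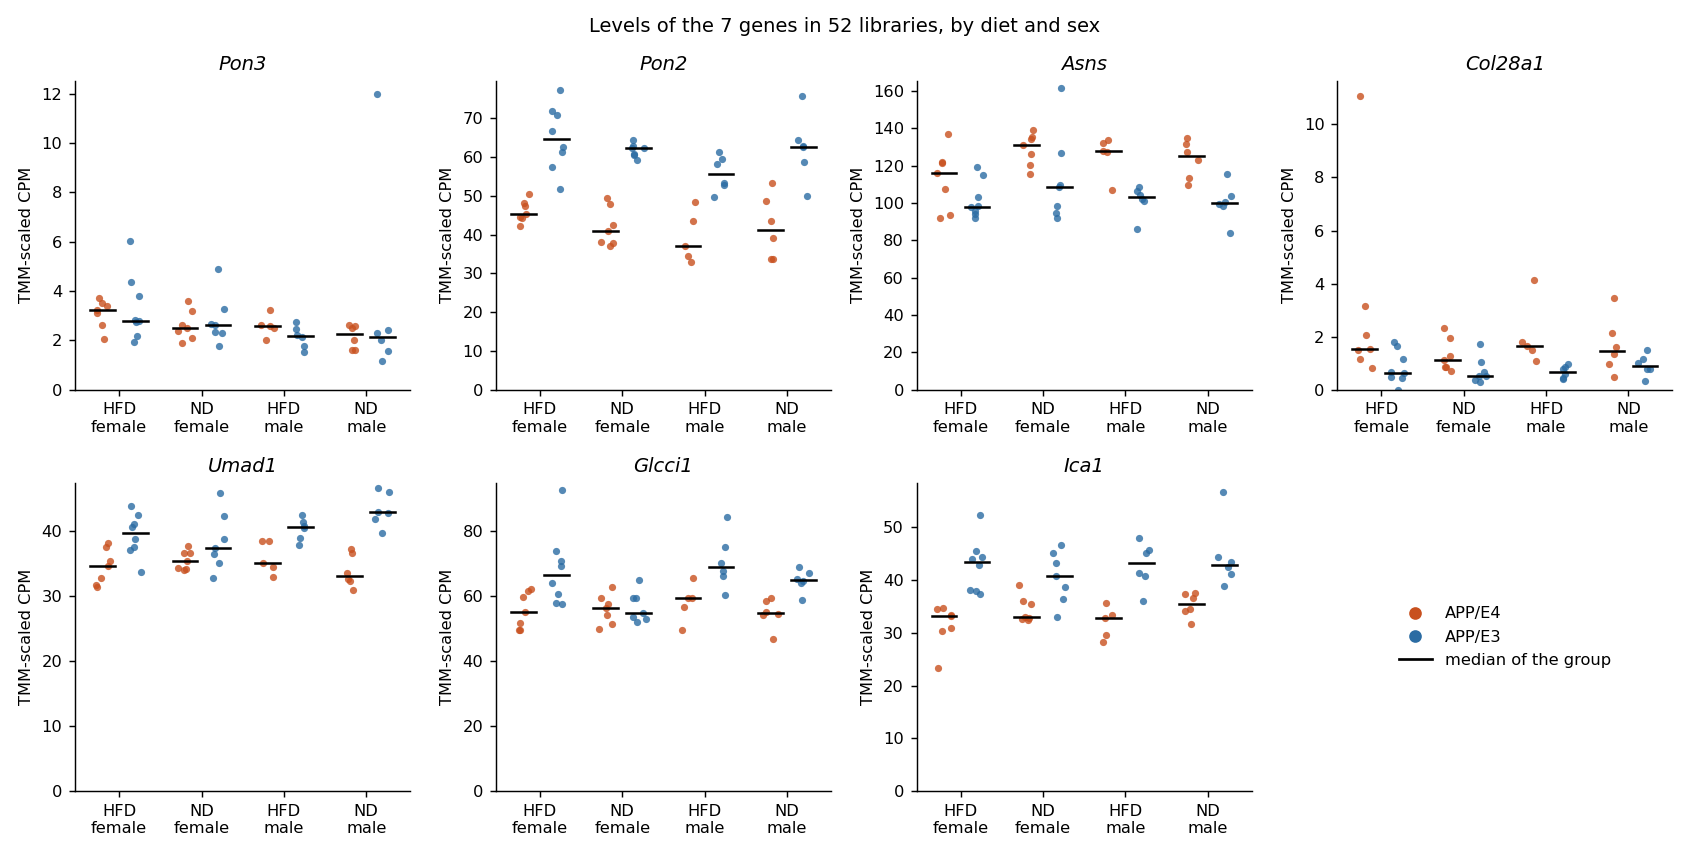
TMM-scaled CPM of the 7 genes in each of the 52 libraries (points) by diet and sex, with APP/E4 in orange left of APP/E3 in blue and the group median as a black line. Pon2 medians lie between 37.0 and 45.3 CPM in APP/E4 and between 55.7 and 64.7 CPM in APP/E3, and single libraries stand far above the rest in the Pon3 and Col28a1 panels.

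Pon2, the intracellular paraoxonase, had 42.3, 45.3 and 50.6 CPM as lowest, median and highest value in APP/E4 HFD females, against 51.7, 64.7 and 77.4 CPM in APP/E3 HFD females. The 5 APP/E4 HFD males had 32.9, 34.6, 37.0, 43.4 and 48.5 CPM, and the APP/E3 HFD males ran over 49.8, 55.7 and 61.4 CPM. On normal chow the lowest, median and highest values were 37.1, 40.9 and 49.4 CPM in APP/E4 females and 59.3, 62.2 and 64.5 CPM in APP/E3 females. Every APP/E4 library lay below every APP/E3 library in these 3 combinations, a separation in that direction that 0.105%, 0.573% and 0.244% of tested genes showed. In ND males the ranges met, at 33.7, 41.3 and 53.3 CPM in APP/E4 and 50.01, 62.7 and 75.8 CPM in APP/E3. Over all libraries the APP/E4 median was 70.7% of the APP/E3 median, and in 669 of 675 pairs of an APP/E4 and an APP/E3 library the APP/E4 value was the lower one. In GENCODE vM21, 680 exon bases of Pon2 are shared with a gene on the other strand, Gm44424, which is not in the count table. The sources used here do not say whether the counting used strand, and reads of that gene could be counted as Pon2.

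Pon3, the paraoxonase next to Pon2, was counted at low levels in every library. Lowest, median and highest values were 2.04, 3.23 and 3.72 CPM in APP/E4 HFD females and 1.92, 2.80 and 6.02 CPM in APP/E3 HFD females. The 5 APP/E4 HFD males had 2.02, 2.51, 2.56, 2.63 and 3.24 CPM, against 1.55, 2.18 and 2.76 CPM in APP/E3 HFD males. In ND females they were 1.90, 2.49 and 3.58 CPM in APP/E4 and 1.79, 2.63 and 4.88 CPM in APP/E3. APP/E4 ND males had 1.60, 2.27 and 2.63 CPM and APP/E3 ND males 1.17, 2.15 and 11.97 CPM. The groups overlapped in all 4 combinations. The value of 11.97 CPM belongs to APP/E3 ND male 3, the library with the highest Omp (278 CPM), Cyp2a5 (371 CPM) and Cyp2g1 (200 CPM) of all 52. Omp marks olfactory sensory neurons, and the 2 cytochromes are known from olfactory mucosa; they were picked after their values were seen. Without this library the genotype difference of Pon3 was 0.0556 in place of -0.14 on the log2 scale. Pon1, the third paraoxonase gene and the neighbour of Pon3, had 0 counts in 37 libraries, did not pass the filter and reached 19.8 CPM in the same library against at most 1.06 CPM in any other. The next highest Pon3 values were 6.02 CPM in APP/E3 HFD female 6 and 4.88 CPM in APP/E3 ND female 6. The former library had the highest summed choroid plexus markers of all 52 (2599 CPM), and the latter the highest summed meningeal markers (368 CPM). Both were picked after their values were seen. The part of olfactory, choroid plexus or meningeal tissue in the Pon3 values of other libraries was not tested.

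The windows around the annotated start sites of the 2 paraoxonases are shown because Pon2 and Pon3 lie side by side, differ in how far they separate the genotypes, and varied together in 1 genotype. Both are from RefSeq on GRCm38.p6 and read 5′ to 3′ on the minus strand, from 250 bases before to 50 bases after the start site, chr6:5298291-5298590 for Pon2 and chr6:5256184-5256483 for Pon3. Capitals mark the antioxidant response core TGACNNNGC, searched on both strands and present in 12.4% of 32851 promoter windows of the same length.
Pon2: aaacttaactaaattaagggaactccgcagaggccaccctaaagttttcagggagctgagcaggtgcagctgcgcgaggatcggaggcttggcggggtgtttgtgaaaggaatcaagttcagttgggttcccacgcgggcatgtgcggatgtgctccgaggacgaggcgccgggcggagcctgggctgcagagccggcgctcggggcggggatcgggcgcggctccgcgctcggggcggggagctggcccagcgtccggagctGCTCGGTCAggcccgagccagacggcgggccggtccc
Pon3: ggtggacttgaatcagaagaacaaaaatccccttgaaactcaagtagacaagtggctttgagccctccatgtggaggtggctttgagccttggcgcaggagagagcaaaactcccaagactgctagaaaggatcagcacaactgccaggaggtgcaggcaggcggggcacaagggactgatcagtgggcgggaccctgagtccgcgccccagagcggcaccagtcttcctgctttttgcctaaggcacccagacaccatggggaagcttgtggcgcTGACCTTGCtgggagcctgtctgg
The Pon2 window holds 31 CpG and 67.7% GC, the Pon3 window 7 CpG and 57.7% GC, and the median over all windows is 7 CpG. The core begins 14 bases into the Pon2 transcript, on the opposite strand, and 27 bases into the Pon3 transcript, on the strand shown. The core was also present in windows of the members Asns, Glcci1 and Ica1. These matches describe letters in the windows only.

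Of the other paraoxonase, HDL and lipid peroxide genes, 24 were tested. For genotype, 0 of these 24 passed an adjusted p of 0.05 in edgeR, against 6.79% of all genes. An unadjusted p under 0.05 was found in 6 of the 24 and in 3235 of all 15195 genes. The median log2 difference of the 24 was -0.03, against -0.000113 for all genes, with values from -0.31 to 0.18. Pon2 was thus the sole gene of this list past the threshold, and it had been chosen on that contrast.

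Asns, which makes asparagine from aspartate and glutamine, was higher in APP/E4 in all 4 combinations of diet and sex, with overlap in each. APP/E4 HFD females had 92.1, 116 and 137 CPM as lowest, median and highest value and APP/E3 HFD females 91.7, 98.1 and 119 CPM. The 5 APP/E4 HFD males had 107.1, 127.5, 127.9, 131.9 and 133.5 CPM, and APP/E3 HFD males 86.3, 103 and 108 CPM. In ND females the values were 116, 131 and 139 CPM in APP/E4 and 92.1, 108 and 161 CPM in APP/E3. In ND males they were 110, 125 and 135 CPM in APP/E4 and 84.0, 99.9 and 116 CPM in APP/E3. The highest Asns of all 52 libraries, 161 CPM, was in APP/E3 ND female 4. That library also had the highest Atf4 (185 CPM), Mthfd2 (12.7 CPM), Gars (169 CPM), Nars (305 CPM) and Yars (134 CPM) of all 52; it is a library picked out after its values were seen. It was high in several amino acid response genes and not in Asns alone.

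The Asns window is shown because its start carries the letters through which the amino acid response is known to act on the human gene. It lies at chr6:7693160-7693459 on the minus strand of GRCm38.p6 (RefSeq). Capitals mark, in order, the antioxidant core on the opposite strand, the nutrient sensing response element 1 (NSRE-1, TGATGAAAC) and element 2 (NSRE-2, GTTACA).
Asns: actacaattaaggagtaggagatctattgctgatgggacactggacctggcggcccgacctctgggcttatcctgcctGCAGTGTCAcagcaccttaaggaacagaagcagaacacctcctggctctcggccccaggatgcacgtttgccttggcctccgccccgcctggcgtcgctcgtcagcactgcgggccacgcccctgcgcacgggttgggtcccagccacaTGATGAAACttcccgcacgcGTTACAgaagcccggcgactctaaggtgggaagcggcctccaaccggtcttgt
NSRE-1 begins 23 bases and NSRE-2 begins 3 bases before the annotated start site. Searched on both strands, NSRE-1 was present in 0.247% of 32851 windows, NSRE-2 in 8.25%, and both in 8 windows (0.0244%). None of the other 6 genes held NSRE-1 or NSRE-2, nor did any of the 7 hold the palindromic glucocorticoid response element, which 3 of all windows held.

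Genes of the amino acid response were more often higher than lower in APP/E4. Of 39 tested genes of that list other than Asns, 12 were higher and 1 was lower at an adjusted p under 0.05 in edgeR, that is 33.3% against 6.79% of all genes, and 27 of 39 had a positive difference. The list's median log2 difference was 0.11. Oligodendrocyte markers were higher in APP/E4 as well, 7 of 7 with a median of 0.293, and their part in the list's difference was not tested. Mthfd2, a mitochondrial folate enzyme, rose by 0.49 ± 0.08 (adjusted p = 2.19e-05), with medians of 7.56 CPM in APP/E4 and 5.21 CPM in APP/E3. Chac1, which degrades glutathione, rose by 0.43 ± 0.07 (adjusted p = 4.27e-05), with medians of 7.13 CPM in APP/E4 and 5.54 CPM in APP/E3. Atf4 itself rose by 0.38 ± 0.06 (adjusted p = 6.20e-05), with ranges of 105 to 169 CPM in APP/E4 and 77.7 to 185 CPM in APP/E3. Cars, a cysteinyl-tRNA synthetase, rose by 0.24 ± 0.05 (adjusted p = 0.000638). The 1 gene that fell was Ddit3, the transcription factor CHOP, at -0.18 ± 0.05 (adjusted p = 0.0102), named after its value was seen. Trib3, Psat1 and Phgdh, further targets of ATF4, had medians of 1.15, 115 and 18.9 CPM in APP/E4 and 1.13, 113 and 21.0 CPM in APP/E3, and did not pass the threshold. The list and its direction in these libraries were known when it was written, so the count is no independent support.

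Col28a1 had the largest log2 difference of the 7 genes and the lowest level, so its values rest on few counts. APP/E4 HFD females had 0.807, 1.53 and 11.1 CPM as lowest, median and highest value, and APP/E3 HFD females 0, 0.644 and 1.82 CPM. The 5 APP/E4 HFD males had 1.10, 1.48, 1.64, 1.81 and 4.13 CPM, all above the APP/E3 HFD males at 0.412, 0.680 and 0.958 CPM, a separation that 0.823% of tested genes showed in that direction. On normal chow the values were 0.705, 1.12 and 2.32 CPM in APP/E4 females against 0.277, 0.531 and 1.71 CPM in APP/E3 females, and 0.471, 1.47 and 3.45 CPM in APP/E4 males against 0.345, 0.893 and 1.5 CPM in APP/E3 males. Raw counts in a library started at 5 in APP/E4 and at 0 in APP/E3, and 2 libraries lay under 3 counts. The highest value, 11.1 CPM, was in APP/E4 HFD female 4, which also had the highest summed level of 6 olfactory genes (1017 CPM, against 375 CPM in the next library), among them Cdhr1 at 470 CPM and Doc2g at 205 CPM. Over the groups that sum ran from 6.56 to 1017 CPM with a median of 60.2 CPM in APP/E4, and from 9.12 to 347 CPM with a median of 78.9 CPM in APP/E3. None of these 6 genes was at an adjusted p under 0.05 for genotype. Without APP/E4 HFD female 4 and APP/E3 ND male 3 the genotype difference of Col28a1 was 1.06 ± 0.22. APP/E4 ND male 3, the next library in that sum at 375 CPM, had Col28a1 at 3.45 CPM and stayed in this fit. Another 24 tested genes were for collagens with von Willebrand A domains, matrix partners and basement membranes. Of these, 1 passed the threshold for genotype (4.17%, against 6.79% of all genes). It was the collagen VI chain gene Col6a2 at -0.32 ± 0.10 (adjusted p = 0.0413 in edgeR). Without 1 library at a time its adjusted p ranged from 0.0113 to 0.0807, and the call was lost in 27 of these 52 fits.

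Umad1 had 31.5, 34.7 and 38.3 CPM as lowest, median and highest value in APP/E4 HFD females and 33.7, 39.7 and 43.9 CPM in APP/E3 HFD females. HFD males had 33.0, 34.5, 35.1, 38.5 and 38.5 CPM in the 5 APP/E4 libraries and 37.9, 40.7 and 42.6 CPM in APP/E3. In ND females the values were 34.1, 35.5 and 37.7 CPM in APP/E4 and 32.9, 37.5 and 45.9 CPM in APP/E3. The ND males were the sole combination without overlap, at 31.1, 33.1 and 37.3 CPM in APP/E4 and 39.8, 42.9 and 46.7 CPM in APP/E3, which 0.599% of tested genes showed in that direction. Of 17 other tested ESCRT genes, 1 rose and 1 fell for genotype in edgeR (11.8%, against 6.79% of all genes). Ubap1, which shares the UMA domain, rose by 0.15 ± 0.03 (adjusted p = 0.00338), with medians of 55.7 CPM in APP/E4 and 50.4 CPM in APP/E3. Vps37d, an ESCRT-I subunit, fell, with a log2 difference of -0.29 ± 0.07 (adjusted p = 0.00417).

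Glcci1 was lower in APP/E4 in 3 of 4 combinations of diet and sex. HFD females had 49.5, 55.2 and 62.3 CPM as lowest, median and highest value in APP/E4 and 57.7, 66.7 and 92.7 CPM in APP/E3. In HFD males the 5 APP/E4 values were 49.7, 56.7, 59.5, 59.6 and 65.8 CPM, against 60.4, 69.0 and 84.5 CPM in APP/E3. ND males had 46.9, 55.0 and 59.6 CPM in APP/E4 and 59.0, 65.0 and 69.1 CPM in APP/E3. ND females lay at 50, 56.4 and 62.8 CPM in APP/E4 and 52.1, 54.9 and 65.2 CPM in APP/E3, where the medians differed little and in the other direction. Of 23 other tested glucocorticoid response genes, 1 passed the threshold for genotype (4.35%, against 6.79% of all genes). That gene, Pdk4, also lies between Pon2 and Asns on the chromosome. The median log2 difference of these 23 genes was 0.0039. In GENCODE vM21 the gene Gm45062 shares 430 exon bases with Umad1 and 5412 with Glcci1 on the same strand, and the handling of reads common to them is not stated in the sources.

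Ica1 had 23.4, 33.2 and 34.6 CPM as lowest, median and highest value in APP/E4 HFD females and 37.2, 43.4 and 52.3 CPM in APP/E3 HFD females. The 5 APP/E4 HFD males had 28.3, 29.6, 32.8, 33.4 and 35.6 CPM and the APP/E3 HFD males 36.0, 43.2 and 47.9 CPM. ND males had 31.7, 35.5 and 37.5 CPM in APP/E4 and 38.7, 42.9 and 56.7 CPM in APP/E3. In these 3 combinations the genotypes did not overlap, as 0.105%, 0.573% and 0.599% of tested genes did in that direction. ND females did overlap, at 32.4, 33.0 and 39.0 CPM in APP/E4 and 33.0, 40.8 and 46.6 CPM in APP/E3. Among 23 other tested genes of Ica1's partners and of dense-core vesicles, 1 rose and 2 fell for genotype in edgeR, that is 13% against 6.79% of all genes. Rab2a, the binding partner of the Ica1 protein, was lower by a log2 difference of -0.21 ± 0.05 (adjusted p = 0.00213). The granule membrane phosphatase genes went opposite ways, Ptprn2 at 0.17 ± 0.04 (adjusted p = 0.0106) and Ptprn at -0.10 ± 0.03 (adjusted p = 0.0379). The Ptprn call was lost when any of 21 of the 52 libraries was left out (adjusted p up to 0.0793). The paralog Ica1l had a difference of -0.04 ± 0.04 (adjusted p = 0.582).

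The chromosomal order does not give a single run of like changes. From Pon3 to Ica1 the members read Pon3, Pon2, Asns, Col28a1, Umad1, Glcci1 and Ica1, so the 2 higher genes lie between lower ones, and the 10 measured genes between Pon2 and Asns include 1 that passed the threshold. Of the 13 unchosen genes within the stretch, 1 passed (7.69%), against 6.79% of all genes and 7.65% of the 706 tested genes of the rest of chromosome 6. These 13 were left over after the members had been chosen on the same contrast, so nothing is read from their share. The gene that passed was Pdk4, a kinase that restrains pyruvate use, at 0.28 ± 0.07 (adjusted p = 0.0150 in edgeR). Its medians were 18.6 CPM in APP/E4 and 16.1 CPM in APP/E3. In read class 1 alone it was at 0.206 (adjusted p = 0.131) and did not pass. The other 12 had differences from -0.24 ± 0.10 in Rpa3 to 0.43 ± 0.15 in Dlx6os1, a long noncoding RNA gene of the Dlx5 and Dlx6 locus (adjusted p = 0.156 and 0.0771). Dync1i1, Shfm1, Dlx6 and Sdhaf3 lay between -0.05 and -0.04, Mios at -0.10 and Tac1 at -0.14. Asb4, C1galt1, Dlx5 and Slc25a13 lay between 0.10 and 0.23. The nearest measured gene after Ica1, Nxph1, differed by 0.09 ± 0.05 (adjusted p = 0.326). Of the 9 tested genes before Pon3, 2 rose, named here after their values were seen: Gng11 by 0.49 ± 0.08 (adjusted p = 2.97e-05) and Bet1 by 0.19 ± 0.04 (adjusted p = 0.00622), a G-protein gamma subunit and a vesicle SNARE. None of the 9 tested genes after Ica1 passed, and 1 of them had an unadjusted p under 0.05, as did 3235 of all 15195 genes.

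**Figure D2:**
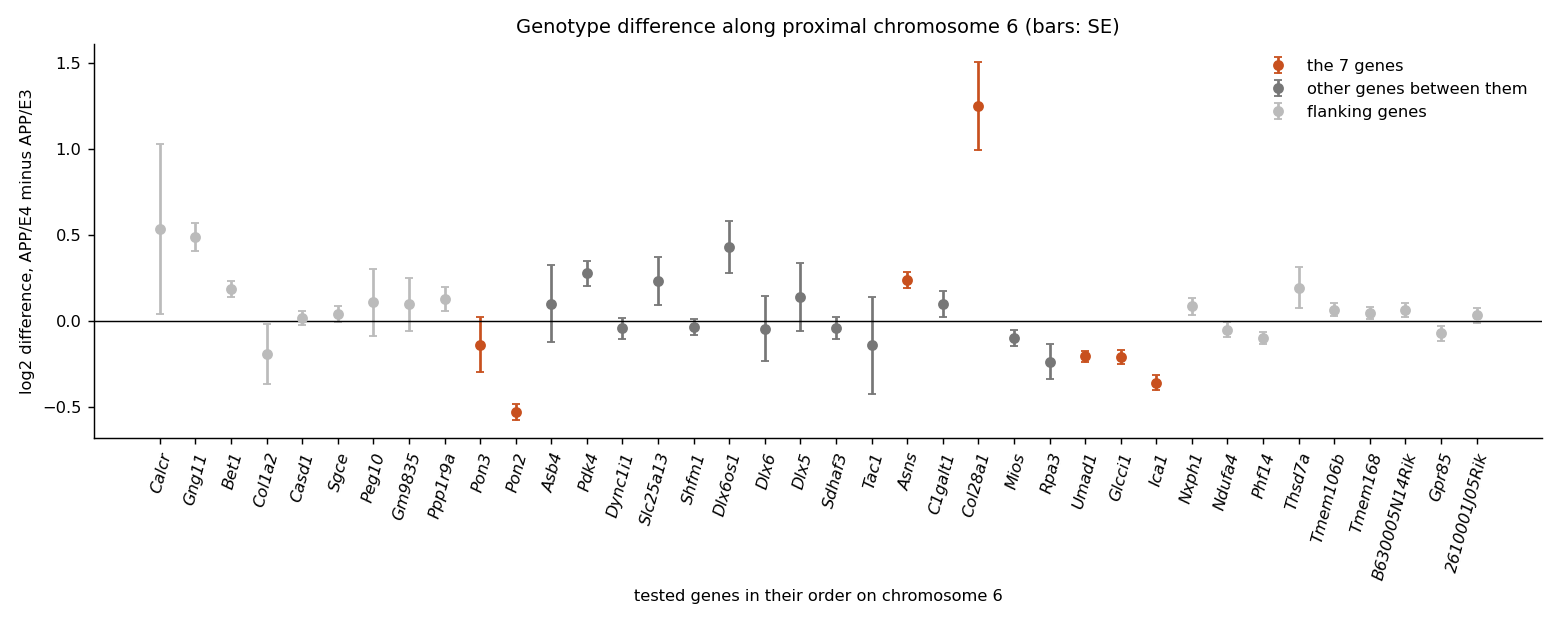
Log2 difference of APP/E4 minus APP/E3 with its SE for the 38 tested genes from 10 measured genes before Pon3 to 10 after Ica1, in chromosomal order and not to physical scale. Pon2 at -0.53 and Col28a1 at 1.25 stand out among the 7 genes (orange), and most unchosen genes between them (dark grey) lie near 0.

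The genotype differences varied among combinations of diet and sex by different amounts. Pon2 was the most even, between -0.57 ± 0.10 in ND males and -0.49 ± 0.09 in HFD females. Ica1 ranged from -0.45 ± 0.08 in HFD females to -0.24 ± 0.08 in ND females, and Asns from 0.15 ± 0.09 in HFD females to 0.31 ± 0.10 in HFD males. Umad1 ranged from -0.35 ± 0.07 in ND males to -0.11 ± 0.06 in ND females. Glcci1 lay at -0.30 ± 0.08 in HFD females and at -0.02 ± 0.08 in ND females. Col28a1 was at 1.78 ± 0.46 and 1.56 ± 0.56 in HFD females and males, and at 0.80 ± 0.52 and 0.86 ± 0.51 in ND females and males. Without the 2 libraries with olfactory genes the value of HFD females was 0.963 ± 0.417. Pon3 had both signs, from -0.62 ± 0.33 in ND males, with the library at 11.97 CPM, to 0.28 ± 0.35 in HFD males, and the value of ND males was 0.151 ± 0.243 without those 2 libraries. Whether these differences depend on diet or sex was tested as interactions below.

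**Figure D3:**
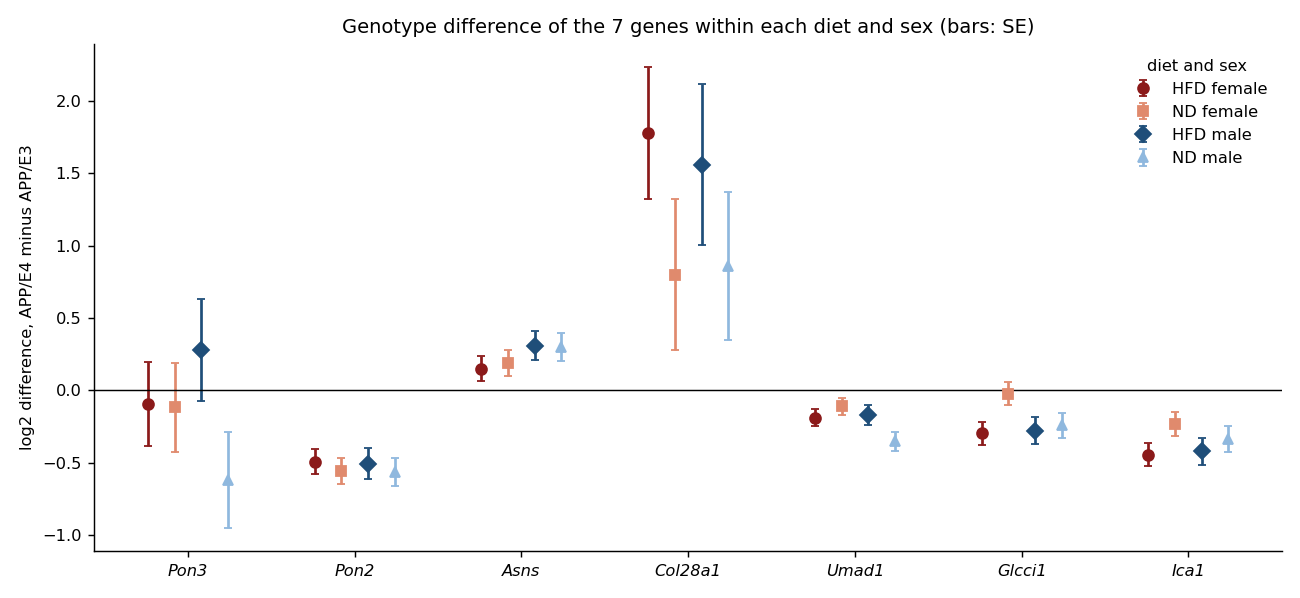
Log2 difference of APP/E4 minus APP/E3 with its SE for each of the 7 genes in HFD females, ND females, HFD males and ND males. The 4 Pon2 values lie between -0.57 and -0.49, whereas Glcci1 is at -0.02 in ND females and Col28a1 spans 0.80 to 1.78.

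Diet, sex and their interactions with genotype were not used to choose the genes, and for these tests were made over all 15195 genes in edgeR with Benjamini-Hochberg adjustment. For HFD against ND, 0 of the 7 genes and 0 of all genes (0.0%) passed, with 1398 genes at an unadjusted p under 0.05 and 2 genes called by DESeq2. Glcci1 came closest among the 7, with 49.5, 61.3 and 92.7 CPM as lowest, median and highest value over 26 HFD and 46.9, 58.1 and 69.1 CPM over 26 ND libraries. Its log2 difference was 0.12 ± 0.04 (unadjusted p = 0.00683, adjusted p = 0.376), and 0.0633 in read class 1 alone. Within APP/E3 it was 0.20 ± 0.06 (adjusted p = 0.197) and within APP/E4 0.04 ± 0.06 (adjusted p = 0.927). In APP/E3 females, where 0.0263% of all genes and 0 of the 7 passed and 5 of 8 HFD and 2 of 7 ND libraries were outside read class 1, it was 0.27 ± 0.08 (adjusted p = 0.668). The authors' deposited table gives Glcci1 a log2 coefficient of -0.124 with an unadjusted p of 0.0195 for diet. Its coefficients ran opposite to the HFD minus ND differences fitted here, with a Pearson r of -0.873 across genes, which are not independent replicates. Intervals for the other genes were narrow except for the paraoxonase Pon3 and for Col28a1. The diet difference had a 95% confidence interval of -0.11 to 0.08 for Pon2, -0.17 to 0.02 for Asns, -0.07 to 0.06 for Umad1 and -0.15 to 0.02 for Ica1. For Pon3 it was -0.29 to 0.34, and for Col28a1 -0.19 to 0.83. Without the 2 libraries with olfactory genes the diet difference was 0.213 ± 0.113 for Pon3 (adjusted p = 0.538) and 0.131 ± 0.226 for Col28a1 (adjusted p = 0.88).

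For females against males, 0 of the 7 genes passed, where 671 of all genes (4.42%) did. Pon2 had a mean of 54.1 ± 11.3 CPM (SD) over 29 female libraries, against 50.3 ± 11.7 CPM over 23 male libraries, and its log2 difference was 0.11 ± 0.05 (unadjusted p = 0.0264, adjusted p = 0.192 in edgeR). Pon3 had 1.79, 2.74 and 6.02 CPM as lowest, median and highest value in females and 1.17, 2.30 and 11.97 CPM in males, a difference of 0.23 ± 0.16 (adjusted p = 0.448). Without APP/E3 ND male 3, Pon3 passed at a log2 difference of 0.427 (adjusted p = 0.0187), and without that library and APP/E4 HFD female 4 at 0.415 (adjusted p = 0.0221). With terms for read class and title style added to all libraries, the Pon3 difference was 0.07 (adjusted p = 0.922). Sex moves together with both terms, since all 11 libraries outside class 1 are female and all 14 titled without a sex letter are male. The part of read class and title style in the Pon3 difference was not tested beyond these values. The remaining differences were -0.05 for Umad1, -0.05 for Ica1, -0.07 for Glcci1, 0.02 for Asns and 0.05 for Col28a1, with adjusted p from 0.382 to 0.953.

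The effect of diet did not differ between the genotypes at the threshold in any of the 7 genes or in any tested gene (0.0%), with 1515 genes at an unadjusted p under 0.05 and 0 genes called by DESeq2. The difference of diet effects, APP/E4 minus APP/E3, was 0.84 ± 0.52 for Col28a1 (adjusted p = 0.564), and 0.437 without APP/E4 HFD female 4 and 1.46 in read class 1 alone. It was -0.16 ± 0.08 for Glcci1 (adjusted p = 0.527) and -0.15 ± 0.09 for Ica1 (adjusted p = 0.552). Within APP/E4 alone, HFD minus ND was 0.74 ± 0.34 for Col28a1 (adjusted p = 0.650), and 0.337 ± 0.297 without the 2 libraries with olfactory genes, and -0.14 ± 0.06 for Ica1 (adjusted p = 0.653). The effect of sex likewise did not differ between genotypes at the threshold in any of the 7 genes, where 1 of all genes passed (0.00658%). Those differences ran from -0.14 ± 0.09 for Asns to 0.11 ± 0.06 for Umad1, with adjusted p from 0.948 to 0.999.

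**Figure D4:**
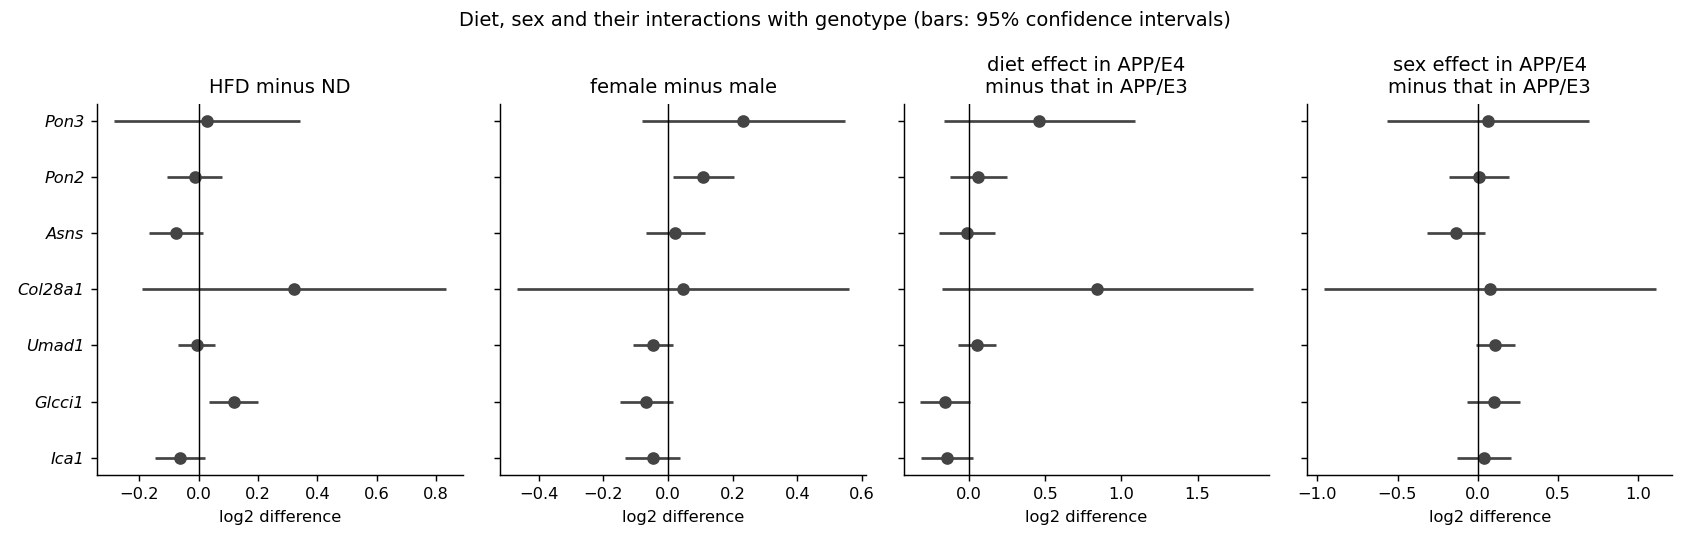
Log2 differences (points) with 95% confidence intervals (lines) of the 7 genes for HFD minus ND, female minus male, and the interaction of each with genotype; each panel has its own axis. Glcci1 for diet and Pon2 for sex are the 2 intervals that leave 0, before adjustment over all genes, and the Pon3 and Col28a1 intervals are the widest.

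Among the other genes of the lists, 0 of 149 tested genes passed for HFD against ND, with 18 at an unadjusted p under 0.05. For sex, 11 rose and 1 fell in females (8.05%, against 4.42% of all genes), and 8 of the 11 belong to the paraoxonase, HDL and lipid peroxide list. Among them were Sod1 at 0.41 ± 0.08 (adjusted p = 0.00135 in edgeR), Gpx4 at 0.34 ± 0.07 (adjusted p = 0.00306), Pla2g7 at 0.16 ± 0.04 (adjusted p = 0.0117) and Prdx6 at 0.16 ± 0.04 (adjusted p = 0.0140), all enzymes that act on oxidized lipids or on reactive oxygen. Sesn2 of the amino acid list rose by 0.23 ± 0.06 (adjusted p = 0.0236). Vps37d and Chmp4b of the ESCRT list rose by 0.25 ± 0.07 (adjusted p = 0.0189) and 0.10 ± 0.03 (adjusted p = 0.0285), and Chmp4b lost its call without either of 2 libraries, APP/E4 HFD male 1 or 5 (adjusted p up to 0.0586). The glucocorticoid target Lcn2 fell, with a difference of -1.15 ± 0.34 (adjusted p = 0.0372), and lost its call when any of 11 libraries was left out (adjusted p up to 0.0852). When the fit held terms for read class and title style, 0 of these genes passed for sex. Differences then shrank in most of these genes, to 0.0322 in Sod1, 0.055 in Gpx4, 0.0804 in Pla2g7 and 0.0978 in Prdx6. Vps37d was then at 0.0885, Chmp4b at 0.0536, Clu at 0.0655, Apoe at 0.095 and Lcn2 at -0.459. Sesn2 shrank less, to 0.188 ± 0.0935 (adjusted p = 0.388). Gpx1 and Sod3 were larger, at 0.178 against 0.159 without the terms and at 0.405 against 0.282. In read class 1 alone, Sod1, Gpx4, Pla2g7, Sesn2, Vps37d, Chmp4b, Clu and Lcn2 lost their calls, whereas Apoe, Gpx1, Prdx6 and Sod3 kept theirs. Markers of other cell types moved with sex as well. Of 7 microglial markers, 7 were higher in females and 2 passed, and of 7 astrocyte markers, 6 were higher and 2 passed, Gfap among them at 0.71 ± 0.10. Of 7 choroid plexus markers, 4 were higher and 3 lower, and 2 passed, the larger being Ttr at 3.35 ± 0.69. The sum of these 7 markers had medians of 34.4 CPM in females and 24.7 CPM in males. Its highest values were 2599 CPM in females, in APP/E3 HFD female 6, and 59.7 CPM in males, so single libraries weigh on this difference. Of 6 tested blood markers, 2 passed as lower in females. Their part in the sex differences of the lists was not tested.

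Of 7 oligodendrocyte markers, 7 were higher in APP/E4, at a median log2 difference of 0.293. Each had an unadjusted p under 0.05 in edgeR, as 3235 of all 15195 tested genes did. Of the 7, 2 passed an adjusted p of 0.05 (28.6%, against 6.79% of all genes). These were Mag at 0.38 ± 0.12 and Ermn at 0.35 ± 0.11, both genes of myelin. The 7 astrocyte markers had a median difference of -0.0322, 3 of them being higher in APP/E4 and 4 lower, and the 1 that passed, Gfap of reactive astrocytes at 0.35 ± 0.10, had the largest difference of the list. Summed levels of 7 oligodendrocyte genes ran from 2363 to 7110 CPM with a median of 3271 CPM in APP/E4, and from 1146 to 5178 CPM with a median of 2760 CPM in APP/E3. The part of these cell types in the genotype differences of the 7 genes and of the pathway lists was not tested.

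Within each genotype, levels of consecutive members were compared over libraries after removing the means of diet and sex groups. Consecutive members are not always neighbours, since unchosen genes lie between some of them, such as between Pon2 and Asns. There were 12 relations in all, with p-values from 100000 permutations within groups. In 27 APP/E3 libraries Pon3 and Pon2 varied together, with Pearson r = 0.748 (permutation p = 4e-05, adjusted p = 0.00048) and Spearman rho = 0.699 (permutation p = 0.00018, adjusted p = 0.00216). Without the 2 libraries farthest from the median of Pon3, r was 0.638 (permutation p = 0.0004), and without APP/E3 ND male 3 it was 0.707 (adjusted p = 0.00156). It was 0.759 in the 20 libraries of read class 1 and 0.838 in the other 7. APP/E3 HFD female 6 had the highest Pon2 (77.4 CPM), Pon3 at 6.02 CPM and the highest summed choroid plexus markers (2599 CPM). The part of choroid plexus or meningeal tissue in this relation was not tested. In 25 APP/E4 libraries the same pair had r = -0.0182 (adjusted p = 0.97). The difference between these 2 correlations was not tested. Asns and Col28a1 varied in opposite ways in APP/E4, with r = -0.608 (permutation p = 0.00683, adjusted p = 0.0273) and rho = -0.423 (adjusted p = 0.179). Without the 2 farthest libraries r was -0.476 (permutation p = 0.052), and without APP/E4 HFD female 4 it was -0.494 (adjusted p = 0.0638), so this relation rests partly on them. Pon2 and Asns in APP/E3 had r = -0.429 (adjusted p = 0.0273) and rho = -0.418 (adjusted p = 0.11), with r = -0.273 (permutation p = 0.061) without the 2 farthest libraries. The other 9 relations did not pass an adjusted p of 0.05, among them Glcci1 and Ica1 in APP/E4 at r = 0.481 (adjusted p = 0.0699).

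**Figure D5:**
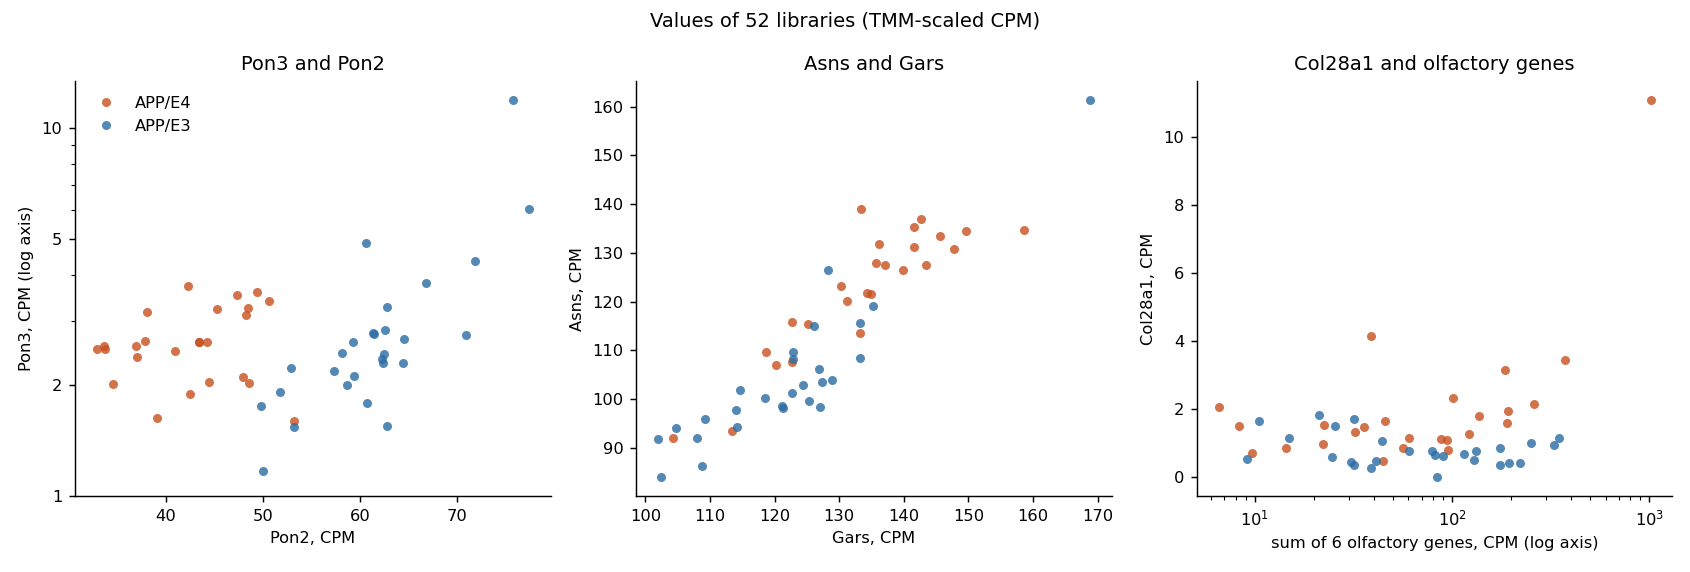
Levels in single libraries (TMM-scaled CPM), APP/E4 in orange and APP/E3 in blue: Pon3 on a log axis against Pon2, Asns against Gars, and Col28a1 against the sum of 6 olfactory genes on a log axis. Pon3 climbs with Pon2 among APP/E3 points, Asns follows Gars in both genotypes, and the highest Col28a1 (11.1 CPM) lies at the highest olfactory sum (1017 CPM).

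Genes whose log2 levels were most like those of a member over the 52 libraries are given as a description, by Pearson r, with r after removal of the 8 group means beside it. Asns was most like 3 aminoacyl-tRNA synthetase genes: Gars at 0.913 and 0.903, Nars at 0.863 and 0.831, and Yars at 0.850 and 0.789, so the likeness was nearly as high within groups as across them. Gars rose by 0.13 ± 0.04 in APP/E4 (adjusted p = 0.0319 in edgeR), a call lost without APP/E4 HFD male 5 (adjusted p = 0.059), and its r with Asns shares library depth and scaling. Pon3 was most like Dsp (0.708 and 0.727), Nfe2l2 (0.708 and 0.723), which encodes the antioxidant response factor NRF2, and Sgms2 (0.706 and 0.707).

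Pon2 was most like genes that follow genotype, and the likeness shrank when group means were removed. These were Gm20186 (0.839 and 0.380), Adar, the RNA-editing enzyme (-0.806 and -0.407), and D630041G03Rik (-0.785 and -0.303). Gm20186 is a lincRNA gene that GENCODE vM21 places on chromosome 6 as well. It had a median of 0 and at most 0.264 CPM in the 25 APP/E4 libraries, and 1.33, 2.48 and 4.01 CPM as lowest, median and highest value in the 27 APP/E3 libraries, with no overlap. Among the genes most like Ica1 were the acute phase gene Serpina3n (-0.793 and -0.473) and Tsr2 (0.788 and 0.383). Serpina3n had 43.7 to 152 CPM in APP/E4 and 10.3 to 37.2 CPM in APP/E3.

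Umad1 was most like Ica1 itself (0.716 and 0.459), then Slc45a1 (0.700 and 0.695) and Serpina3n (-0.687 and -0.288). Glcci1 was most like Bex2 (-0.690 and -0.471), Npc2, the lysosomal cholesterol carrier (-0.646 and -0.639), and Dctn3 (-0.631 and -0.431). Col28a1 was most like Wdr60 (0.696 and 0.545) and Jakmip1 (-0.689 and -0.614).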

How the data were processed

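Messenger RNA of frontal cortex from 52 mice in 8 groups was analysed from raw counts per gene deposited by the authors in 1 table, whose columns all belong to these mice. Per the submitters' processing notes the tools were Subread, featureCounts, limma and edgeR 3.14.0 and the build was mm9. The sources used here state neither the annotation nor the strand setting. The deposited table also holds the authors' log2 coefficient and unadjusted p-value per gene for diet. Of 15692 gene IDs, 15448 matched a RefSeq table (GRCm38.p6), used for chromosomes and gene order only, and 24 symbols turned into dates were restored.

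Counts were tested with edgeR 4.0.16 (R 4.3.3): filterByExpr removed 497 genes and left 15195, totals were TMM-scaled, and all libraries entered 1 robust quasi-likelihood fit with group means as coefficients. P-values were adjusted by Benjamini-Hochberg over all genes of a contrast, with calls at 0.05. The procedure was tested on simulated counts. CPM use TMM-scaled totals, and log2 CPM for correlations a prior count of 2. No 2 libraries of a group were duplicates (146 pairs, chi-square per gene at least 2.88).

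The members and all lists were chosen with earlier results of these data known. Named genes are the members, the measured genes of the stretch, up to 4 called genes per list and contrast by smallest p, the partners Atf4, Ubap1 and Ica1l, and the 3 genes most like each member, of which some are not reported here. Alternatives were RLE scaling, no filter, DESeq2 1.42.0, limma 3.58.1 voom, terms for read class and title style, class 1 alone, leaving out each library and, for correlations, a prior count of 0.5 or no library titled with F. Leaving out the 2 libraries high in olfactory genes was added after seeing the data.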

Additional observations from a re-analysis of the deposited data

Results flagged for a closer look

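Of 56 sets of values (7 genes in 8 groups), 8 held a library whose distance from the nearest other value exceeded Dixon's 95% limit for the group's range, and chance alone gives about 1 set in 20. Pon3 was at 11.97 CPM in APP/E3 ND male 3, with the next value at 2.44 CPM. Asns was low at 107.1 CPM in APP/E4 HFD male 3 (nearest 127.5 CPM) and at 86.3 CPM in APP/E3 HFD male 4 (nearest 101 CPM). Col28a1 was high at 11.1 CPM in APP/E4 HFD female 4 (nearest 3.15 CPM) and at 4.13 CPM in APP/E4 HFD male 3 (nearest 1.81 CPM), the library that was also low in Asns. Its summed olfactory level was 38.9 CPM, rank 35 of 52 from the highest. Glcci1 was high at 92.7 CPM in APP/E3 HFD female 3 (nearest 74.1 CPM). Ica1 was low at 23.4 CPM in APP/E4 HFD female 6 (nearest 30.2 CPM) and high at 56.7 CPM in APP/E3 ND male 2 (nearest 44.3 CPM).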

How the results depend on the processing

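Under the 8 other settings and when each of 52 libraries was left out, the genotype differences of Pon2, Asns, Col28a1, Umad1, Glcci1 and Ica1 kept their direction. They ranged over the other settings from -0.567 to -0.517 for Pon2, 0.235 to 0.291 for Asns, 1.06 to 1.71 for Col28a1, -0.208 to -0.161 for Umad1, -0.217 to -0.156 for Glcci1 and -0.366 to -0.312 for Ica1. That of Pon3 was 0.021 with voom and 0.0463 without the 2 olfactory libraries, and ranged from -0.183 to 0.0556 when 1 library was left out. No member was called for diet or for either interaction under any setting run. For sex the count of members was 1 without the 2 olfactory libraries and 0 to 1 when 1 library was left out. Other list genes called for genotype numbered 20, 19 to 29 under the other settings and 16 to 26 when 1 library was left out. Those called for sex numbered 12, 0 with read class and title style terms, and 7 to 18 when 1 library was left out (7 without APP/E4 HFD male 5). Pairs of consecutive members correlated within a genotype numbered 3. They numbered 1 in class 1 alone, 1 without the 2 farthest and 1 without the 2 olfactory libraries. When 1 library was left out they numbered 2 to 5 (5 without APP/E4 ND male 4). Members that were not called changed sign as follows; the cause was not tested. For diet, Pon2 was at 0.0296 in class 1 and 0.00062 without the olfactory libraries. For sex, Asns was at -0.0679 with the class term, -0.0754 with class and title terms and -0.0663 in class 1, and Col28a1 at -0.15 with voom, -0.186 in class 1 and -0.148 without the olfactory libraries. For diet by genotype, Pon2 was at -0.0207 in class 1, and Asns at 0.0178 with the class term, 0.0165 with class and title terms and 0.0309 without the olfactory libraries. For sex by genotype, Pon3 was at -0.126 with voom, -0.00414 with the class term, -0.184 in class 1 and -0.339 without the olfactory libraries, Pon2 at -0.0624 in class 1 and -0.0257 without the olfactory libraries, and Col28a1 at -0.356 without them. Leaving out 1 library gave ranges across 0 for diet in Pon3 (-0.018 to 0.221), Pon2 (-0.0361 to 0.00623) and Umad1 (-0.0156 to 0.00515), and for sex in Asns (-0.00411 to 0.0338) and Col28a1 (-0.159 to 0.153). It did so for diet by genotype in Asns (-0.0643 to 0.0148), and for sex by genotype in Pon3 (-0.325 to 0.153), Pon2 (-0.0234 to 0.0517), Col28a1 (-0.332 to 0.286) and Ica1 (-0.00443 to 0.0651). Over all genes, terms for read class and title style gave 1684 genotype calls in place of 1032 and 32 sex calls in place of 671. Among named genotype calls, Gars was lost without APP/E4 HFD male 5, Pdk4 and Ptprn in class 1 alone and Col6a2 without the 2 olfactory libraries. Col6a2 was also lost when any of 27 of the 52 libraries was left out, and Ptprn when any of 21 was. With 5 to 8 libraries a group, Pon3 and Col28a1 are limited by low counts. No paired analysis was possible because the titles give animal numbers and no replicate numbers, and replicate numbers follow accession order.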
